A study of Mus musculus with 9 samples.

Results

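The mitochondrial genome encodes 6 mRNAs for subunits of respiratory complexes III, IV and V, which were measured here in RNA recovered with the RNA sensor RIG-I from mouse melanoma cells. The members were listed by name, with earlier results of these data known, and no measured value enters the choice of members: mt-Cytb of complex III, mt-Co1, mt-Co2 and mt-Co3 of complex IV, and mt-Atp6 and mt-Atp8 of complex V. All 6 were found among the 22396 genes of the deposited count table, and all 6 passed the filter on low counts among 12337 tested genes. mt-Atp8 passed it through the shRNA libraries alone, because none of its 3 shCtr libraries reached the level the filter asks for (0.289 CPM, counts per 1000000 counts of the library), so its difference from shCtr is given as a description with no p. B16F10 cells, a mouse melanoma line, stably expressed FLAG-tagged RIG-I in all 9 libraries, so the controls carry that construct too. They also stably expressed an shRNA, either the control shCtr or, to deplete OSGEP, shOSGEP#1 or shOSGEP#2, with 3 replicates per group that the study describes as independent experiments. RIG-I complexes were immunoprecipitated through the FLAG tag, and the bound RNA was depleted of ribosomal RNA and sequenced. The labels give the genotype as wild type and no time point or further agent. No lysate RNA and no precipitate without FLAG-RIG-I was analysed here, so a higher level of an RNA in the cell and a greater recovery of it with RIG-I cannot be told apart. In bulk RNA of this kind, fewer cells and less RNA per cell cannot be told apart either.

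The mitochondrial genome is transcribed from both strands into long RNAs that span many genes. Most of its mRNAs are released when the tRNAs that lie between them are cut out, after which each mRNA has its own stability. The encoded subunits form the membrane core of the respiratory chain: cytochrome b (mt-Cytb) carries electrons within complex III, cytochrome c oxidase subunits I to III (mt-Co1, mt-Co2, mt-Co3) make up the core of complex IV, and the products of mt-Atp6 and mt-Atp8 sit in the membrane part of ATP synthase. OSGEP carries the catalytic site of KEOPS, the enzyme complex that makes the t6A modification of cytosolic tRNAs, and RIG-I is a cytosolic sensor of viral RNA.

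In the GENCODE annotation of GRCm38, the mitochondrial chromosome holds 37 genes, of which 13 are protein-coding, 22 are tRNAs and 2 are ribosomal RNAs. Only the 13 protein-coding genes were in the count table. All 6 members lie on the same strand, whereas mt-Nd6 is the 1 protein-coding gene on the opposite strand. tRNA genes flank mt-Co1, mt-Co2 and mt-Cytb on both sides, but none separates mt-Atp8, mt-Atp6 and mt-Co3. The annotated genes are 1545 bases long for mt-Co1, 684 for mt-Co2, 784 for mt-Co3, 1144 for mt-Cytb, 681 for mt-Atp6 and 204 for mt-Atp8.

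The sequences of mt-Atp8 and mt-Atp6 are shown because a read from the stretch they share can be assigned to either gene. They come from the GENCODE transcripts of GRCm38 and are written 5′ to 3′ in the sense of the mRNA. The 43 shared bases are in capitals, at the end of mt-Atp8 (all 204 bases) and at the start of mt-Atp6 (its first 100 bases).
mt-Atp8: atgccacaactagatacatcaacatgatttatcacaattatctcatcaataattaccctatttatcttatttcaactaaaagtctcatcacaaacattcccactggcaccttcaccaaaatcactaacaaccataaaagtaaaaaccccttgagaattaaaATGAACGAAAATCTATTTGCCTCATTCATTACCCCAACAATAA
mt-Atp6: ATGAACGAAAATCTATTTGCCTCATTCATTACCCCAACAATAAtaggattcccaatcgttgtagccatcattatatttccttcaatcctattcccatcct

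The junction of mt-Atp6 with mt-Co3 is shown because these mRNAs meet without a tRNA between them. The last 50 bases of mt-Atp6 and the first 50 of mt-Co3 are given, with the 1 shared base in capitals.
mt-Atp6, end: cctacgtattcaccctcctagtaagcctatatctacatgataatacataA
mt-Co3, start: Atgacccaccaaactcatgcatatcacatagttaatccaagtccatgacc

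Sequences similar to 5 of the members also lie in the nuclear genome as annotated pseudogenes, none of which was in the count table. Gm28661 matched mt-Co2 over 681 of 684 bases with an identity of 100%, and Gm10925 matched mt-Atp6 over 678 of 681 bases with the same identity. Gm28437 matched mt-Co3 over 783 of 784 bases, also with 100% identity. Gm29216 covered 483 bases of mt-Co1 with an identity of 99.8%, whereas the closest copy of mt-Cytb, Gm11410, matched it at 92.9% only. No copy of mt-Atp8 was found at the alignment threshold used. The levels of mt-Co1, mt-Co2, mt-Co3 and mt-Atp6 are uncertain to the extent that the authors' counting divided reads between the mitochondrial gene and a near-identical nuclear copy.

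A pair of libraries stood apart by their measured values and is shown separately throughout. Total counts ran from 14914731 to 50224299 in 8 libraries and were 568995 in shOSGEP#2 replicate 2, where 4196 genes were detected against 11733 to 13958 in the others. The median Spearman correlation of that library with the others was 0.57, against 0.95 to 0.97 for the other 8. The second library apart, shOSGEP#1 replicate 3, had an ordinary depth but a share of mitochondrially encoded mRNA far above every other library, as given below. The part of depth in the values of shOSGEP#2 replicate 2 was not tested. All 8 melanocyte markers had counts in 8 libraries, with a summed level of 8065 to 10702 CPM in shCtr and 10458 to 13562 CPM in shOSGEP#1. The sum hides markers that moved in opposite directions. Tyr was at 153 to 193 CPM in shCtr and 26.1 to 30.4 CPM in shOSGEP#1, whereas Gpnmb was at 2027 to 2543 and 4170 to 5997 CPM. With shOSGEP#2 the sum was 3717, 2511 and 4611 CPM, below every other library. Mitf and Tyr were at 0 in its replicate 2, whereas Sox10, at 1090 CPM, was higher there than in any other library. The part of these lower marker sums in the shOSGEP#2 values of the 6 genes was not tested. The 13 markers of immune, endothelial, stromal and epithelial cells summed to at most 9.72 CPM. Osgep had 649 to 949 counts in the shCtr libraries, 47 to 130 with shOSGEP#1, and 2, 0 and 43 with shOSGEP#2. Its log2 fold change was -3.10 for shOSGEP#1 and -3.95 for shOSGEP#2, with adjusted p = 0.811 and 0.302 in all 9 libraries and 0.0128 and 0.0150 without shOSGEP#2 replicate 2 (edgeR).

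The 6 mRNAs made up a small share of the recovered RNA, except in shOSGEP#1 replicate 3. Their summed share of the counts was 0.206%, 0.137% and 0.277% in the shCtr libraries (mean 0.207% ± 0.0703, SD, n = 3). It was 0.321%, 0.416% and 2.198% with shOSGEP#1. All shOSGEP#1 libraries lay above all shCtr libraries, and replicate 3 was 10.6 times the shCtr mean, while replicates 1 and 2 were 1.55 and 2.01 times that mean. With shOSGEP#2 the share was 0.186%, 0.131% and 0.235%, within the shCtr range in replicates 1 and 3 and just below it in replicate 2. The 95% Wilson interval of the replicate 2 share was 0.122% to 0.141%, which covers counting error only and overlaps the lowest shCtr share. The difference of the mean log2 share from shCtr was 1.74 for shOSGEP#1, 0.88 without its replicate 3, and -0.15 for shOSGEP#2. The sign for shOSGEP#2 is not settled, since the value was -0.44 with TMM scaling, 0.08 without its replicate 2 and 0.09 without shCtr replicate 3.

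What the 6 genes contributed to all mitochondrially encoded mRNA also set those libraries apart. In 7 libraries the 6 held 87.6% to 93.5% of the counts on the 13 protein-coding genes, with the remainder on the complex I genes. In shOSGEP#1 replicate 3 they held 74.2%, and in shOSGEP#2 replicate 2 they held 20.7%. In the latter library the mRNAs of complex I, not those of complexes III to V, carried most of the mitochondrial counts.

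**Figure D1:**
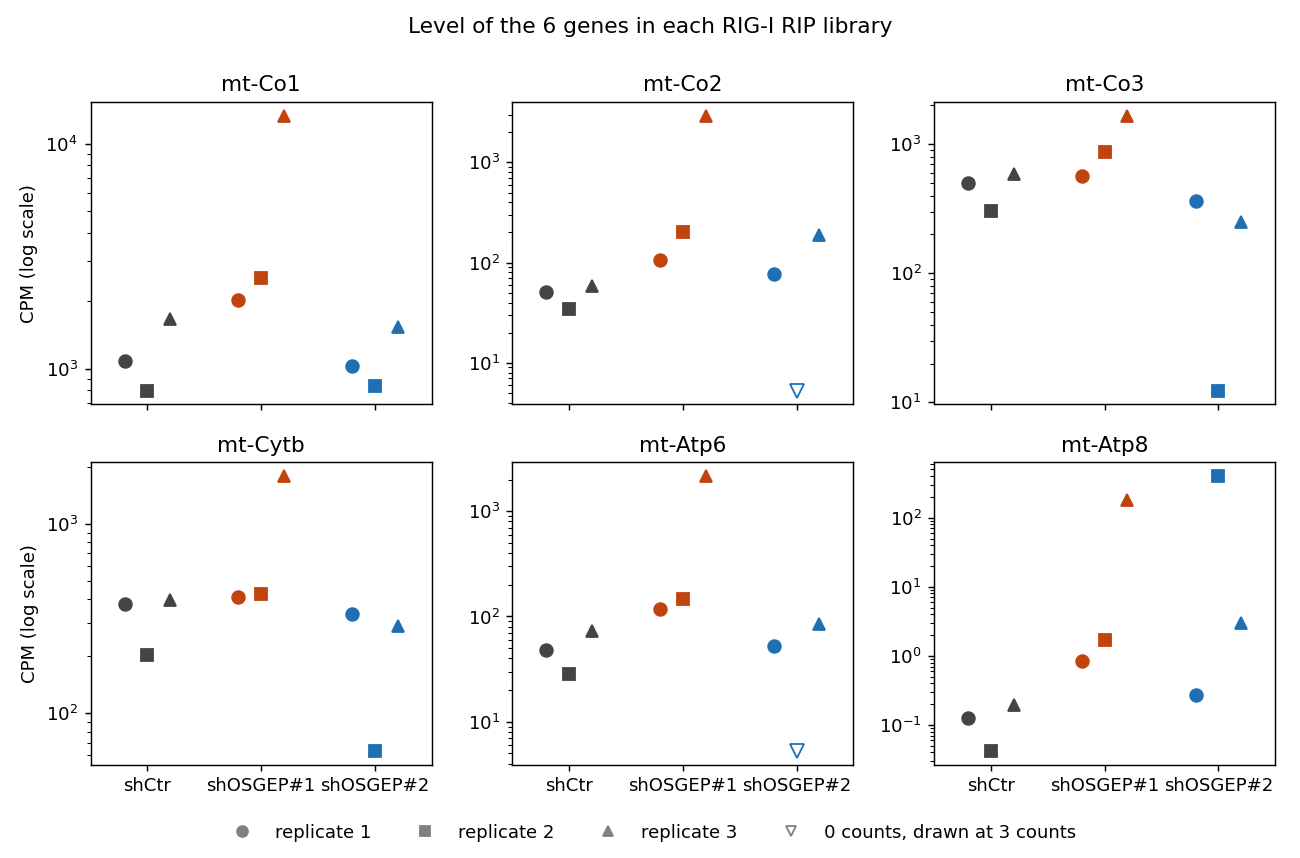
Level of each of the 6 genes in CPM (log axis) in the 3 groups, with 1 point per library, marker shapes for the replicate number, and open triangles at the level of 3 counts where a gene had 0 counts. The point of shOSGEP#1 replicate 3 is the highest of its panel for 5 genes, and in the mt-Atp8 panel shOSGEP#2 replicate 2 lies above it at 401 CPM.

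Of the complex IV mRNAs, mt-Co1, which encodes the subunit with the site of oxygen reduction, was the most abundant member. Its level was 1080, 797 and 1654 CPM in shCtr, 2008, 2525 and 13279 CPM in shOSGEP#1, and 1032, 837 and 1535 CPM in shOSGEP#2. All shOSGEP#1 libraries were above all shCtr libraries, whereas the shOSGEP#2 libraries fell within the shCtr range. The shCtr mean was 1177 ± 436 CPM (SD, n = 3), and without replicate 3 the shOSGEP#1 mean was 2267 ± 365 CPM (SD, n = 2).

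mt-Co2 encodes the subunit that takes electrons from cytochrome c. Its level was 51.0, 34.8 and 58.8 CPM in shCtr, 105, 200 and 2909 CPM in shOSGEP#1, and 76.9, 0 and 189 CPM in shOSGEP#2. Every library of either shRNA was above every shCtr library except shOSGEP#2 replicate 2, which had 0 counts. By counting error alone, a count of 0 in that library allows up to 5.27 CPM, the level of 3 counts. Other mRNAs well above that level in shCtr were also at 0 there, among them Uqcrc2 (139, 148 and 131 CPM in shCtr), so the 0 does not show that mt-Co2 was lower than in shCtr.

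mt-Co3 encodes the remaining core subunit of cytochrome c oxidase encoded in mitochondria. Its level was 497, 304 and 591 CPM in shCtr, 567, 865 and 1660 CPM in shOSGEP#1, and 365, 12.3 and 248 CPM in shOSGEP#2. It was the only member whose shOSGEP#1 libraries overlapped the shCtr libraries, through replicate 1. In shOSGEP#2 replicate 2 its level rested on 7 counts, with a 95% Wilson interval of 5.96 to 25.4 CPM.

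Complex III is represented by mt-Cytb alone, the only subunit of that complex made in mitochondria. Its level was 379, 204 and 398 CPM in shCtr, 410, 426 and 1791 CPM in shOSGEP#1, and 334, 63.3 and 288 CPM in shOSGEP#2. The shOSGEP#1 libraries lay above shCtr, in replicate 1 by a small margin, and shOSGEP#2 replicates 1 and 3 lay within the shCtr range.

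Of the complex V mRNAs, mt-Atp6 encodes the subunit that forms the proton path of ATP synthase. Its level was 48.4, 28.3 and 73.4 CPM in shCtr, 118, 146 and 2156 CPM in shOSGEP#1, and 52.3, 0 and 83.9 CPM in shOSGEP#2. All shOSGEP#1 libraries were above shCtr, and in shOSGEP#2 replicate 2 the gene had 0 counts.

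mt-Atp8, the shortest of the 6, encodes a small membrane subunit of the same enzyme and was close to the floor in shCtr. It had 5, 2 and 8 counts in shCtr, 29, 84 and 5606 in shOSGEP#1, and 7, 228 and 44 in shOSGEP#2. In CPM this was 0.124, 0.0419 and 0.191 in shCtr, 0.839, 1.67 and 183 in shOSGEP#1, and 0.275, 401 and 2.95 in shOSGEP#2. Each of the 6 shRNA libraries was above each shCtr library, although the Wilson interval of shOSGEP#2 replicate 1 (0.133 to 0.568 CPM) overlapped that of shCtr replicate 3 (0.0970 to 0.378 CPM). Because of the 43 shared bases, reads of mt-Atp6 can be counted on mt-Atp8, and the part of this in the mt-Atp8 values was not tested. In shOSGEP#2 replicate 2, mt-Atp6 had 0 counts and mt-Atp8 had 228.

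Counted over the members, and with mt-Atp8 set aside for the way it passed the filter, the levels of all 3 shOSGEP#1 libraries lay above all shCtr libraries for 4 of 5 genes, and this held for 23.5% of all tested genes. Without replicate 3 the same 4 genes were above shCtr, against 29.3% of all tested genes. For shOSGEP#2, 0 of 5 were above shCtr in all 3 libraries, against 9.07% of tested genes. In replicates 1 and 3 of shOSGEP#2, mt-Co2 was above shCtr, or 1 of 5, against 29.3% of all tested genes.

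The excess in shOSGEP#1 replicate 3 was unequal among the 6 mRNAs. Relative to the shCtr mean, its level was 3.58 times for mt-Co3, 5.47 times for mt-Cytb and 11.3 times for mt-Co1. It was 43.1 times for mt-Atp6 and 60.4 times for mt-Co2. For mt-Atp8 it was 1534 times a shCtr mean that rested on 2 to 8 counts per library. The members with the lowest shCtr levels per length, mt-Co2, mt-Atp6 and mt-Atp8, thus had a larger excess in this library than mt-Co1, mt-Co3 and mt-Cytb. Replicates 1 and 2 of shOSGEP#1 together were 1.28 times the shCtr mean for mt-Cytb, 1.54 for mt-Co3, 1.93 for mt-Co1, 2.64 for mt-Atp6, 3.17 for mt-Co2 and 10.5 for mt-Atp8.

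In the edgeR fit of all 9 libraries, none of the 6 genes passed an adjusted p of 0.01 in any comparison, and neither did any of the other genes (0% of 12337 tested). Of the 5 members other than mt-Atp8, 3 reached an unadjusted p under 0.05 as higher for shOSGEP#1, against 2.83% of all tested genes, and 0 for shOSGEP#2, against 5.84%. For shOSGEP#1 the log2 fold change over shCtr was 2.31 (SE 0.759, adjusted p = 0.790) for mt-Co1, 4.45 (SE 1.70, adjusted p = 0.879) for mt-Co2 and 3.99 (SE 1.55, adjusted p = 0.895) for mt-Atp6. It was 1.13 (SE 0.969) for mt-Co3 and 1.40 (SE 0.816) for mt-Cytb. The median over these 5 was 2.31, beside -0.01 over all tested genes. The value of mt-Atp8, 8.96, is a description, since the gene was tested only because the shRNA libraries were high. For shOSGEP#2 the log2 fold change was -0.27 for mt-Co1, 0.81 for mt-Co2, -1.24 for mt-Co3, -0.64 for mt-Cytb and -0.20 for mt-Atp6, with adjusted p from 0.766 to 0.964. Their median was -0.27, beside -0.37 over all tested genes. That of mt-Atp8 was 9.38 and rested on replicate 2. Both comparisons use the same shCtr libraries.

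Without shOSGEP#2 replicate 2, the common dispersion of the fit fell from 0.420 to 0.0692, and the fold changes of shOSGEP#1 stayed close to those above (2.32 for mt-Co1, 4.46 for mt-Co2) with narrower standard errors (0.613 and 1.05). Adjusted p was 0.0124 for mt-Co2, 0.0146 for mt-Atp6, 0.0209 for mt-Co1, 0.0457 for mt-Co3 and 0.0668 for mt-Cytb (edgeR). No member passed 0.01, where 5% of all tested genes passed as higher, and all 5 members other than mt-Atp8 reached an unadjusted p under 0.05 as higher, against 18% of all tested genes. With a replicate block in the same libraries, mt-Co1 and mt-Atp6 did pass as higher, as 5.58% of all tested genes did (values under processing). In the fit without the block, the log2 fold changes of shOSGEP#2 were 0.02 for mt-Co1, 1.36 for mt-Co2, -0.69 for mt-Co3, -0.16 for mt-Cytb and 0.34 for mt-Atp6. Their adjusted p ran from 0.258 to 0.984 (edgeR). For mt-Atp8 the fit gave 8.997 for shOSGEP#1 and 3.50 for shOSGEP#2, again as a description.

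When shOSGEP#1 replicate 3 was left out as well, the fold changes of shOSGEP#1 were smaller for all 6 genes and remained above 0. That library was set apart for its share of mitochondrial mRNA and was the highest of its group for each member. Smaller values thus follow from the choice itself. All adjusted p values of fits without that library come after this choice and are given as a description. mt-Co2 was at 1.65 (adjusted p = 0.0182), mt-Atp6 at 1.38 (adjusted p = 0.0246), and mt-Co1 at 0.93 (adjusted p = 0.0555) in edgeR. mt-Co3 was at 0.61 and mt-Cytb at 0.34, with adjusted p of 0.197 and 0.414. For shOSGEP#2 in this fit, mt-Co2 was at 1.36 (adjusted p = 0.0279, edgeR). mt-Atp8, with no p for the reason given, was at 3.36 for shOSGEP#1 and 3.60 for shOSGEP#2, the latter over replicates with 7 and 44 counts. No member passed 0.01 in the 7 libraries, in which 2.87% of all tested genes passed as higher for shOSGEP#1 and 6.69% for shOSGEP#2.

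**Figure D2:**
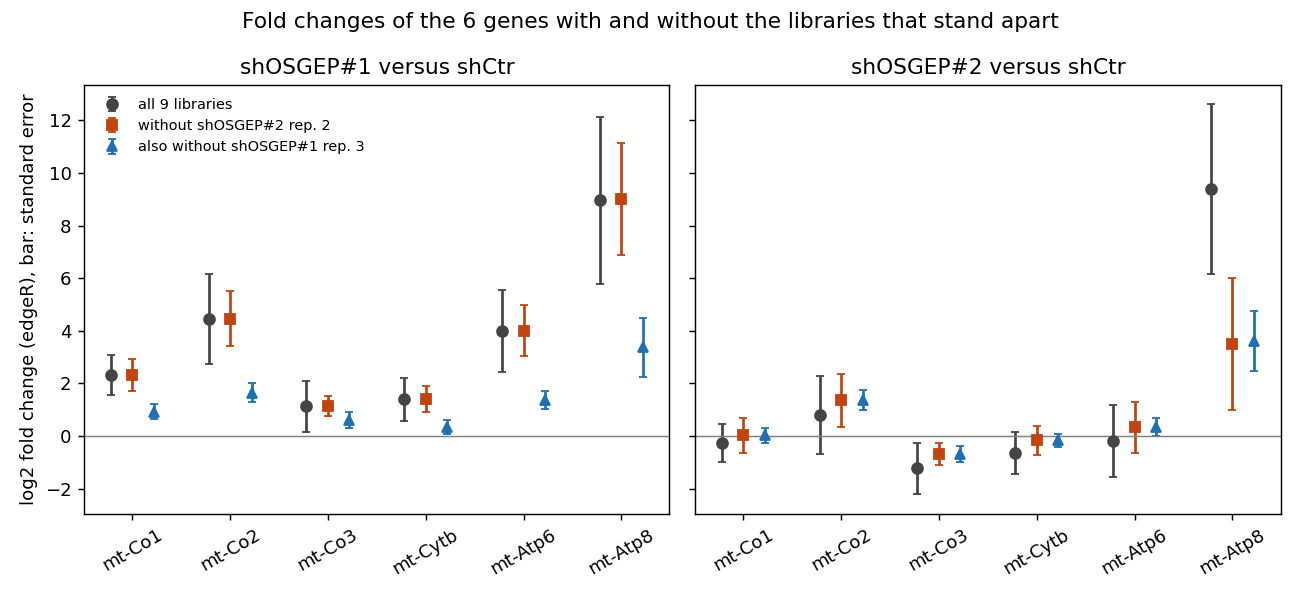
log2 fold change of the 6 genes over shCtr for each shRNA (edgeR, bars are standard errors) in the fit of all 9 libraries, without shOSGEP#2 replicate 2, and without shOSGEP#1 replicate 3 as well. For shOSGEP#1 the values of mt-Co2 fall from 4.46 to 1.65 once its replicate 3 is left out, and for shOSGEP#2 the value of mt-Atp8 falls from 9.38 to 3.50 once its replicate 2 is left out.

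The shRNAs were also compared with each other. Without shOSGEP#2 replicate 2, all 6 genes were lower with shOSGEP#2 than with shOSGEP#1, from -1.57 for mt-Cytb to -5.50 for mt-Atp8, with adjusted p from 0.0119 for mt-Co3 to 0.0766 for mt-Co2 among the 5 other than mt-Atp8 (edgeR). None passed 0.01, where 4.56% of all tested genes passed as lower. With a replicate block in the same libraries, mt-Co1 did pass as lower, as 611 of 12744 tested genes did. In the 7 libraries without either library apart, the difference was -1.30 for mt-Co3 (adjusted p = 0.0250), -1.04 for mt-Atp6, -0.91 for mt-Co1, -0.50 for mt-Cytb, -0.30 for mt-Co2 and 0.23 for mt-Atp8.

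Levels of different genes were compared as CPM per kb of gene length. In 6 of the 7 libraries that do not stand apart, the order was mt-Co1, mt-Co3 and mt-Cytb, then mt-Co2 and mt-Atp6 in either order, then mt-Atp8. In shCtr replicate 1, for example, these levels were 699 CPM per kb for mt-Co1, 634 for mt-Co3, 331 for mt-Cytb, 74.5 for mt-Co2, 71.1 for mt-Atp6 and 0.608 for mt-Atp8. Neighbours in this order that changed places between libraries of 1 group, mt-Co2 and mt-Atp6, did not differ beyond the spread. The shCtr ranges of mt-Co1 (516 to 1070) and mt-Co3 (388 to 753) overlapped too, although mt-Co1 was above mt-Co3 in each library, and the range of mt-Cytb (179 to 348) lay below that of mt-Co3. In the remaining library, shOSGEP#2 replicate 3, mt-Co2 (276 CPM per kb) was above mt-Cytb (252). In shOSGEP#1 replicate 3, mt-Co2 (4253) and mt-Atp6 (3166) were above mt-Co3 (2117) and mt-Cytb (1566). In shOSGEP#2 replicate 2, mt-Atp8 came first with 1964 CPM per kb, ahead of mt-Co1 with 541, mt-Cytb with 55.3 and mt-Co3 with 15.7.

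**Figure D3:**
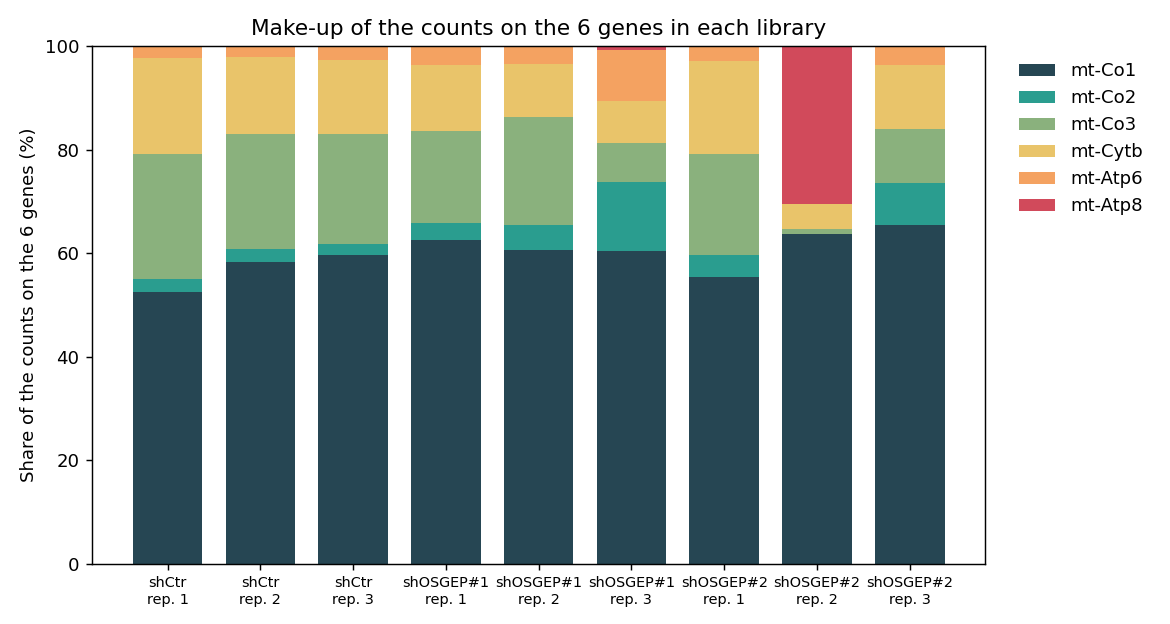
Share of each of the 6 genes in the counts on all 6, in percent, with 1 stacked bar per library. mt-Co1 holds 52.5% to 65.4% in all 9 libraries, whereas mt-Co3 falls to 7.55% in shOSGEP#1 replicate 3 and mt-Atp8 takes 30.5% in shOSGEP#2 replicate 2.

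Within the counts on the 6 genes, mt-Co1 held the largest share in every library, between 52.5% and 65.4%. mt-Co3 held 24.2%, 22.2% and 21.3% in shCtr, 17.7%, 20.8% and 7.55% in shOSGEP#1, and 19.6%, 0.937% and 10.6% in shOSGEP#2. It was thus below the shCtr range in all 6 shRNA libraries, although in shOSGEP#2 replicate 2 the share rested on 7 counts. mt-Cytb held 18.4%, 14.9% and 14.4% in shCtr, 12.8%, 10.2% and 8.15% in shOSGEP#1, and 18.0%, 4.82% and 12.3% in shOSGEP#2. mt-Co2 went the other way, with 2.48%, 2.54% and 2.12% in shCtr, 3.28%, 4.81% and 13.2% in shOSGEP#1, and 4.14% and 8.05% in shOSGEP#2 replicates 1 and 3. mt-Atp6 held 2.07% to 2.64% in shCtr, 3.51% to 9.81% in shOSGEP#1, and 2.81% and 3.58% in shOSGEP#2 replicates 1 and 3. mt-Co2 and mt-Atp6 thus held a larger share than in any shCtr library in every shRNA library except shOSGEP#2 replicate 2, where they were at 0. How often other genes separate from shCtr in such a share was not computed. Separation was common for the related ratio to mt-Co1. It lay outside the shCtr range in all 3 shOSGEP#1 libraries for 64.2% of all tested genes, and in all 3 shOSGEP#2 libraries for 13.6%.

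Ratios to mt-Co1 within a library were tested with a two-sided exact permutation test of the log2 ratio (0.5 added to each count), 10 comparisons in all, none of which can go below p = 0.1 with 3 libraries against 3. With shOSGEP#1 the log2 ratio differed from shCtr by 1.21 for mt-Co2, 0.99 for mt-Atp6 and 3.97 for mt-Atp8, and by -0.79 for mt-Co3 and -0.74 for mt-Cytb. For each of these 5 ratios all 3 shOSGEP#1 libraries lay outside the shCtr range. Each ratio other than that of mt-Atp8 thus had the smallest exact permutation p of 0.1. The ratios of mt-Atp8 are given as a description with no p, because of the way it passed the filter. Such separation was common, as 64.2% of all tested genes had a ratio to mt-Co1 outside the shCtr range in all 3 shOSGEP#1 libraries, where mt-Co1 itself was above shCtr. Without shOSGEP#1 replicate 3 the differences kept their direction, at 0.62, 0.49, 2.40, -0.35 and -0.59 in the same order, and both remaining libraries still lay outside the shCtr range for each, as they did for 65.7% of all tested genes.

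With shOSGEP#2 the log2 ratio to mt-Co1 differed from shCtr by -2.04 for mt-Co3 (exact permutation p = 0.1) and by -0.74 for mt-Cytb (exact permutation p = 0.3). For mt-Co3 all 3 libraries lay outside the shCtr range, as they did for 13.6% of all tested genes. The difference of mt-Atp8, 5.998, is a description. The differences of mt-Co2 (-0.98) and mt-Atp6 (-1.53) had exact permutation p = 1, because both genes were at 0 in replicate 2 and above the shCtr range in replicates 1 and 3. Without replicate 2 they were 1.20 for mt-Co2 and 0.35 for mt-Atp6, with -0.73 for mt-Co3, -0.18 for mt-Cytb and 2.89 for mt-Atp8. Both remaining libraries then lay outside the shCtr range for 3 of 4 ratios other than that of mt-Atp8, against 23.1% of all tested genes. These differences and those of shOSGEP#1 were taken against the same shCtr libraries.

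Among pairs of members, some ratios were far steadier than others over the 7 libraries that do not stand apart. The ratio of mt-Co1 to mt-Atp6 counts ran from 17.1 to 28.2, a range of 1.65-fold. That of mt-Co1 to mt-Cytb spanned 2.08-fold and that of mt-Co3 to mt-Cytb 2.36-fold. The ratio of mt-Co2 to mt-Co3 ran from 0.0996 to 0.763, a range of 7.66-fold. Between the overlapping mt-Atp6 and mt-Atp8 it ran from 28.5 to 676, a range of 23.7-fold, where the smallest mt-Atp8 count was 2.

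The correlations between members across libraries are given as a description, since the points share their library and its depth. On log2(CPM + 1), Pearson's r was 0.72 to 1.00 over the 15 pairs in the 8 libraries without shOSGEP#2 replicate 2, where shOSGEP#1 replicate 3 is high for every member. Without that library as well (7 libraries), r was 0.98 for mt-Co1 with mt-Atp6 and 0.94 for mt-Co2 with mt-Atp8, and -0.06 for mt-Co3 with mt-Atp8. The higher values thus remained for some pairs and not for others.

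**Figure D4:**
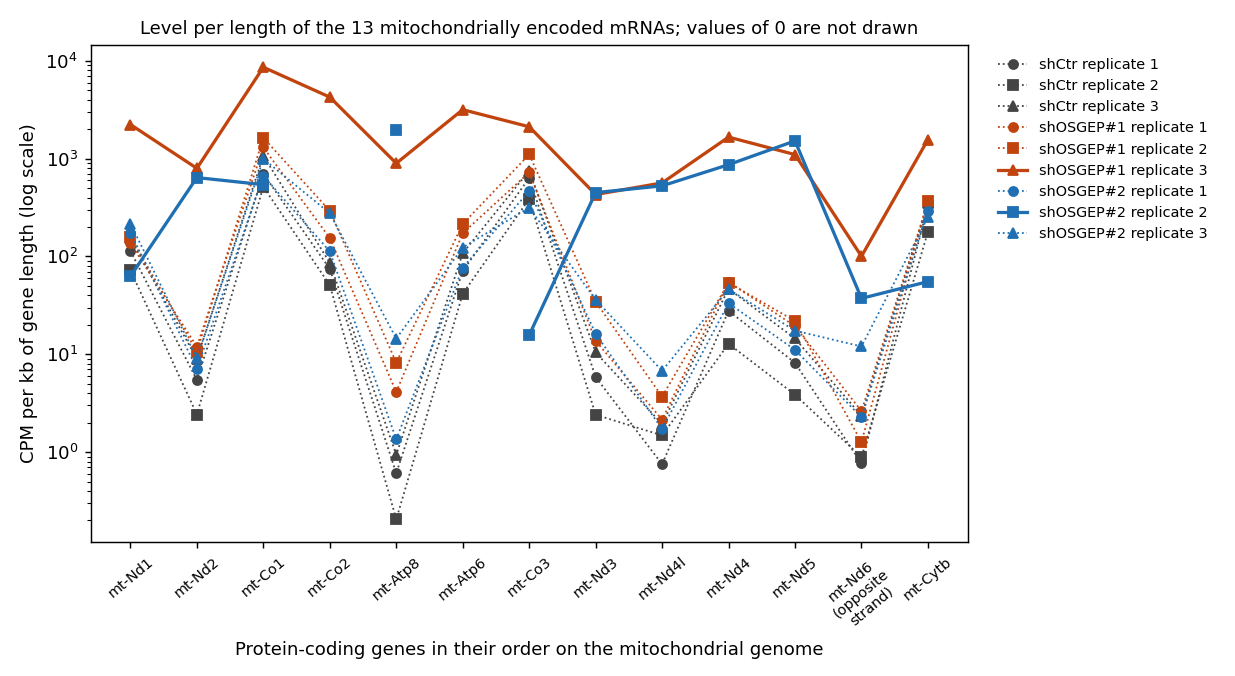
CPM per kb (log axis) of the 13 protein-coding genes in their order along the mitochondrial genome, with 1 line per library, solid for the libraries that stand apart and dotted for the others, and values of 0 not drawn. The dotted lines share peaks at mt-Co1, mt-Co3 and mt-Cytb, whereas shOSGEP#1 replicate 3 stays at 100.4 CPM per kb or above for all 13 genes.

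The complex I mRNAs of the same genome took larger shares of the counts in both libraries that stand apart. Their summed share of the counts was 0.00980% to 0.0333% in 7 libraries, 0.762% in shOSGEP#1 replicate 3 and 0.502% in shOSGEP#2 replicate 2. In shOSGEP#1 replicate 3, mt-Nd5 was at 2006 CPM, 124 times its shCtr mean, and mt-Nd2 at 826 CPM, 142 times. The excess of mt-Nd4, 57.03 times, and of mt-Nd1, 19.8 times, lay within the 3.58 to 60.4 times of the members other than mt-Atp8. In shOSGEP#2 replicate 2, mt-Nd5 was at 2770 CPM and mt-Nd4 at 1195 CPM, above the 837 CPM of mt-Co1, whereas mt-Nd1 was at 0.553 times its shCtr mean. mt-Nd6, from the opposite strand, was at 0.397 to 1.36 CPM in 6 libraries, 6.24 CPM in shOSGEP#2 replicate 3, 19.3 CPM in shOSGEP#2 replicate 2 and 52.1 CPM in shOSGEP#1 replicate 3. None of the 7 complex I genes passed an adjusted p of 0.01 with or without shOSGEP#2 replicate 2 (edgeR). Their median log2 fold change for shOSGEP#1 was 4.67 in all 9 libraries, beside 2.31 for the 5 members other than mt-Atp8, and it was 1.00 against 0.93 in the 7 libraries, so the larger complex I values went with shOSGEP#1 replicate 3.

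The nuclear genes of the same complexes were read beside the 6. In all 9 libraries none of the 9 nuclear subunits of complex III, 11 of complex IV and 15 of complex V passed the test, and their median log2 fold changes for shOSGEP#1 were -0.24, -0.07 and -0.04, beside -0.01 over all tested genes. For shOSGEP#2 they were -0.31, -0.71 and -0.56, beside -0.37, and without its replicate 2 they were -0.27, -0.32 and -0.17, beside -0.06. Without shOSGEP#2 replicate 2, 1 of 9 complex III genes was lower with shOSGEP#1 (4.67% of all tested genes were), and none of the complex IV and V genes passed. That gene was Uqcrb, a small subunit of complex III, at 65.6, 59.1 and 88.7 CPM in shCtr and 16.5, 12.5 and 24.3 CPM in shOSGEP#1, with a log2 fold change of -2.02 (SE 0.295, adjusted p = 0.00124). Its partner in that complex, mt-Cytb, was at 1.41 in the same fit. For shOSGEP#2, 1 of 9 complex III genes was lower, Uqcrh at -0.76 (adjusted p = 0.00842, edgeR), against 3.89% of all tested genes, and no complex IV or V gene passed.

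Genes for the synthesis, processing and decay of mitochondrial RNA and for the assembly of complexes III to V were read in the same way. Of 24 RNA genes, none passed for shOSGEP#1 and 1 was higher for shOSGEP#2 without its replicate 2, against 5.66% of all tested genes. This was Fastk, which encodes a protein of mitochondrial RNA granules, at 70.9, 74.8 and 69.8 CPM in shCtr and 111.6 and 156 CPM in shOSGEP#2 replicates 1 and 3 (log2 fold change 0.80, adjusted p = 0.00871, edgeR). Of 18 assembly genes, 1 was lower with shOSGEP#1, close to the 4.67% of all tested genes that were, and none passed for shOSGEP#2. It was Cox15, needed for the haem of cytochrome c oxidase, at -0.88 (adjusted p = 0.00663, edgeR). Osgepl1, the mitochondrial counterpart of OSGEP, had a log2 fold change of -0.91 with shOSGEP#1 (adjusted p = 0.0334, edgeR), and it did not pass. No list other than the mitochondrially encoded genes had a median beyond 0.66 from 0 for shOSGEP#1 in this fit.

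The nuclear genes whose levels went most closely with the summed level of the 6 were ranked by Pearson's r on log2(CPM + 1) over the 8 libraries without shOSGEP#2 replicate 2, among 10172 genes. They were Zbtb2 (r = 0.99), Pdcd10 (0.97), Ndufb3 (0.97), Zc3h15 (0.97) and Ebna1bp2 (0.97). Without shOSGEP#1 replicate 3, r was 0.96, 0.87, 0.86, 0.82 and 0.93. These are the highest of many values, the libraries are shared, and the ranges were narrow: Zbtb2 was at 41.1 CPM in shOSGEP#1 replicate 3 and at 22.2 to 26.9 CPM in the other 7.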

How the data were processed

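RNA precipitated with FLAG-RIG-I was measured in 9 libraries. The authors prepared stranded, ribosomal RNA-depleted paired-end libraries, trimmed reads with Trim Galore, aligned them with STAR to GRCm39 (Ensembl annotation) and ran Salmon for quantification. They deposited counts per gene as whole numbers, not normalized and not pooled. How reads shared by overlapping genes or nuclear copies were divided is not given in the sources used here.

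Groups and replicate numbers came from the labels. The members and gene lists were chosen with earlier results of these data known. CPM is counts per 1000000 of the library total (14914731 to 50224299, and 568995 in shOSGEP#2 replicate 2). Wilson intervals (95%) and the floor of 3 counts reflect counting error alone, because without molecular identifiers reads are not separate molecules.

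All genes passing filterByExpr were tested with edgeR 4.0.16 (R 4.3.3, TMM, quasi-likelihood F test, all 9 libraries, 3 groups, no covariate), with Benjamini-Hochberg adjustment over all tested genes and a threshold of 0.01 as in the methods. The study itself tested with DESeq2, which is given here among the alternatives. Standard errors were taken as the size of the log2 fold change over the square root of F. Ratios were tested with exact permutation (scipy 1.17.1). The edgeR and DESeq2 fits were first tested on simulated data. Whether same-numbered libraries were paired was checked, and the main fit has no block. Alternatives were DESeq2 1.42.0, RLE, library totals, totals without the 13 mitochondrial genes, no filter, a threshold of 0.05, only the groups compared, a replicate block, and leaving out libraries.

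Named genes were the 6 members, the 7 complex I genes, Osgep, up to 3 genes per list (those past the threshold, or else those with the smallest p without shOSGEP#2 replicate 2), and the 5 nuclear genes most like the summed members with a mean of at least 5 CPM. Identifiers were matched to GENCODE of GRCm38 (22237 of 22396 named), an earlier build than that of the counts, so no coordinates are given. Nuclear copies were found with blastn 2.17.0 (E-value at most 1e-20). Protein sequences were not used here.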

Additional observations from a re-analysis of the deposited data

Results flagged for a closer look

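mt-Co3 was picked out because its libraries fell on opposite sides of the shCtr mean for the shRNAs. Its level was above that mean in all 3 shOSGEP#1 libraries and below it in all 3 shOSGEP#2 libraries. Replicate 1 of shOSGEP#1 (567 CPM) and replicate 1 of shOSGEP#2 (365 CPM) nevertheless lay within the shCtr range of 304 to 591 CPM. The value of shOSGEP#2 replicate 2 rested on 7 counts. The fitted fold changes of mt-Co1, mt-Cytb and mt-Atp6 also had opposite signs for the shRNAs, but their shOSGEP#2 libraries lay on both sides of the shCtr mean. The log2 difference of shOSGEP#2 from shOSGEP#1 was -2.36 (SE 1.006, adjusted p = 0.451, edgeR, all 9 libraries). Without shOSGEP#2 replicate 2 it was -1.83 (adjusted p = 0.0119), and without shOSGEP#1 replicate 3 as well it was -1.30 (adjusted p = 0.0250), neither of which passed 0.01.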

How the results depend on the processing

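No gene was called in any comparison of all 9 libraries with edgeR, where unadjusted p was under 0.05 for 620 genes with shOSGEP#1, 1240 with shOSGEP#2 and 1325 between the shRNAs. DESeq2 called 122, 349 and 413 genes, and gave no p for mt-Atp6 and mt-Atp8. Leaving out shOSGEP#2 replicate 2 gave 1232, 1217 and 1375 calls, leaving out shOSGEP#1 replicate 3 as well gave 724, 1471 and 1119, and leaving out any other single library gave 0. A fit of shCtr and shOSGEP#1 alone called 1495 genes, and a threshold of 0.05 gave 2 for the difference between shRNAs. Of 114 member fold changes for shOSGEP#1 under the alternatives, none changed direction. Those under the threshold of 0.05 repeat the main value and could not change. The count includes mt-Atp8, and the alternatives refit the same libraries, so they are not separate tests. For shOSGEP#2, leaving out 1 library at a time gave -0.634 to 0.066 for mt-Co1, -0.914 to 0.34 for mt-Atp6 and -0.32 to 1.36 for mt-Co2. mt-Co1 and mt-Atp6 turned positive without shCtr replicate 3 or shOSGEP#2 replicate 2, and mt-Co2 turned negative without shOSGEP#2 replicate 3. Without both libraries apart, mt-Co1 was at 0.02, mt-Atp6 at 0.34 and mt-Co2 at 1.36. The difference of mt-Atp8 between shRNAs, 0.42, ranged from -5.50 without shOSGEP#2 replicate 2 to 6.04 without shOSGEP#1 replicate 3, and was -0.15 without shOSGEP#1 replicate 1 or replicate 2. The cause was not tested. For shOSGEP#2, the log2 ratio of mt-Co2 to mt-Co1 turned to 1.20 and that of mt-Atp6 to 0.35 without replicate 2, where these genes were at 0. Leaving out 1 library at a time gave -2.24 to 1.20 and -2.50 to 0.35. The log2 difference of the summed share for shOSGEP#2, -0.15, ranged from -0.439 to 0.094 under the alternatives.

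Same-numbered libraries deviated together only weakly (mean r 0.03 over 9 pairs, none over 0.1, and 3 of 7 over 0.1 without shOSGEP#2 replicate 2). The labels name no day or batch for a number, so whether these libraries were paired is not settled. With the replicate block, 0 genes were called in each comparison and mt-Co2 was at -0.32 for shOSGEP#2. With the replicate block and without shOSGEP#2 replicate 2, 1380, 1238 and 1393 genes were called. For shOSGEP#1 in that fit, mt-Co1 (1.93, adjusted p = 0.00611) and mt-Atp6 (3.04, adjusted p = 0.00951) passed as higher (edgeR). So did 5.58% of all tested genes. Between the shRNAs mt-Co1 differed by -2.17 (adjusted p = 0.00840, edgeR), where 611 of 12744 tested genes passed as lower. The values of mt-Atp8 were 8.02 for shOSGEP#1 and -5.02 between the shRNAs, as a description. mt-Atp8 passed the count filter through the shRNA libraries alone, so its values carry no p.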
